A study of Mus musculus with 15 samples.

Results

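Imprinted genes other than those of the Dlk1-Meg3 domain were followed in mouse embryonic stem cells (ESC) that had lost or regained high mobility group A proteins. The genes were chosen by symbol from a list of 43 known imprinted genes, and 42 of them were among the 21662 genes counted in both experiments. Zfp264 was not analysed here. The 42 genes belong to 21 clusters, the largest being that of Kcnq1 with 7 genes and that of Snrpn with 5. By the parent whose copy is known to be expressed, 24 are paternally and 14 maternally expressed, and 4 (Inpp5f, Herc3, Gnas and H13) differ between their own transcript isoforms.

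RNA-seq counts were available for 15 samples in 6 groups. In the first experiment, WT (3 samples, a to c) is the parental ESC line, of mixed 129Sv-C57Bl/6 background, which carries the biotin ligase BirA under the CAG promoter. KO (2 samples, a and b) is a line of these cells with a Cas9-made frameshift in Hmga1. The Hmga1 and Hmga2 add-backs (2 samples each, a and b) are KO cells with a biotin-tagged cDNA under the CAG promoter, inserted at 1 genomic site. In the second experiment, WT_2 (3 samples, a to c) was compared with a full deletion line (3 samples, a to c) that had lost the whole coding sequence of Hmga1 to Cas9. All groups were ESC grown on feeder cells or gelatine with serum and LIF, and each genotype is a single line. Line-to-line variation and the effect of a genotype therefore cannot be told apart. The study's methods describe RNA from independent cultures harvested on different days but do not tie each sample to a culture, and p-values measure the spread between samples of a single line.

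Genomic imprinting is the expression of a gene from only the maternal or only the paternal chromosome. In most known cases, though not all, it is set by DNA methylation that differs between egg and sperm. Imprinted genes mostly lie in clusters governed by an imprinting control region. Such clusters often pair a growth-promoting paternally expressed gene with a growth-limiting maternally expressed one. In cultured ESC this methylation is known to be prone to loss or gain, so that imprinted genes can vary between lines and passages. The counts analysed here do not separate the parental copies, so they show the summed level of both and not the imprint itself.

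Counts on genes summed to 13465399 to 34952136 per sample in the first experiment and to 14832310 to 21708492 in the second. Levels are CPM, counts scaled by TMM to the same total in each sample, and levels compared between genes are per kilobase of exon (RPKM). Hmga1 had 464, 276 and 221 CPM in the WT samples, 217 and 96.1 in those of KO, 184 and 123 in those of the Hmga1 add-back, and 10.9 to 12.3 in the full deletion against 310 to 357 in WT_2. Since a frameshift need not remove the transcript, the level in KO does not test that label. The Hmga1 add-back was below WT of its batch in both batches and lay within the range of KO samples, lower than KO in batch a and higher in batch b, so the counts do not check the label Hmga1 add-back. Hmga2 had 222 to 249 CPM in the Hmga2 add-back and 12.8 to 23.8 in the other groups. In the first experiment the letters are batches, and batch entered the fit; WT c is alone in its batch, so the test compares lines within batches a and b. In the second experiment WT_2 b stood apart, with a TMM factor of 0.752 against 0.986 to 1.12 in the other 5 samples, and results are given with and without it. WT b likewise decided several counts in the first experiment.

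The promoters of both members called in an add-back are shown from RefSeq on GRCm38.p6, each from 250 bases before to 50 bases after a transcript start. TGCCGC, searched on both strands (GCGGCA on the other), is the hexamer known to be bound by ZFP57 when its CpG is methylated. The hexamer is in capitals where it occurs. Plagl1 (Zac1, a zinc finger factor expressed from the paternal copy) has the hexamer in its promoter, which lies at chr10:13090582-13090881 on the plus strand and holds 26 CpG.
Plagl1: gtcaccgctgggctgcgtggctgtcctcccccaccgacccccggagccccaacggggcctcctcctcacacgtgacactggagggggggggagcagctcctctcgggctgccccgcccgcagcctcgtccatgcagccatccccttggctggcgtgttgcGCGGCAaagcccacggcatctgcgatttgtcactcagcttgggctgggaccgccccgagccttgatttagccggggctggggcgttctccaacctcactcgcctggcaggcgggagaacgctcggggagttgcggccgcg
Sfmbt2 (a Polycomb-related protein, paternal) has 2 promoters on the plus strand, at chr2:10372186-10372485 with 16 CpG and at chr2:10370201-10370500 with 9 CpG. Neither window holds the hexamer.
Sfmbt2 downstream start: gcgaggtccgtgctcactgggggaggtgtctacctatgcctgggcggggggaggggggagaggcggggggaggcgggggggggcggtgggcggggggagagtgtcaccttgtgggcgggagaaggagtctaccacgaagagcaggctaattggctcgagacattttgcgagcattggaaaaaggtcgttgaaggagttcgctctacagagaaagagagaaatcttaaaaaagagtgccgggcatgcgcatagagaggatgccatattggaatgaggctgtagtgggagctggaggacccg
Sfmbt2 upstream start: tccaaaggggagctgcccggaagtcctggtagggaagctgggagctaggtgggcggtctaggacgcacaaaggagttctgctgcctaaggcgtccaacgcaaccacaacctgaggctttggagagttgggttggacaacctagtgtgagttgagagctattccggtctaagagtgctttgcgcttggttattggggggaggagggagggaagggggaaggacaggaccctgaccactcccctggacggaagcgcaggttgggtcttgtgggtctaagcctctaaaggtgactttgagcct
Peg3 and Usp29, whose levels are set side by side below, start in opposite directions from 1 shared stretch. The windows of both share 263 bases at chr7:6730370-6730632, shown on the strand of Usp29, with 13 CpG and no hexamer.
Peg3 and Usp29: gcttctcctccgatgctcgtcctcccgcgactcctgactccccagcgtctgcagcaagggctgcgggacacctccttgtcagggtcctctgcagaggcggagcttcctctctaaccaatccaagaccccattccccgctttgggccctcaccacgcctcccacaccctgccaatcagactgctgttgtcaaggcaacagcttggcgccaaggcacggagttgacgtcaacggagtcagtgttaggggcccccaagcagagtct
Over the members, 12 of 49 promoters (24.5%) held the hexamer, and 11 of 33 genes (33.3%) had it in at least 1 promoter. Of all 32851 promoters of the same length 11.6% held it, and of all 27025 genes 13.1%. The promoters of the members held more CpG (median 17 against 7) and had a lower AT content (median 41.7% against 47.3%) than all promoters, so these shares compare unlike sets. A match of letters is not a binding site, and no match speaks only of these windows.

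**Figure D1:**
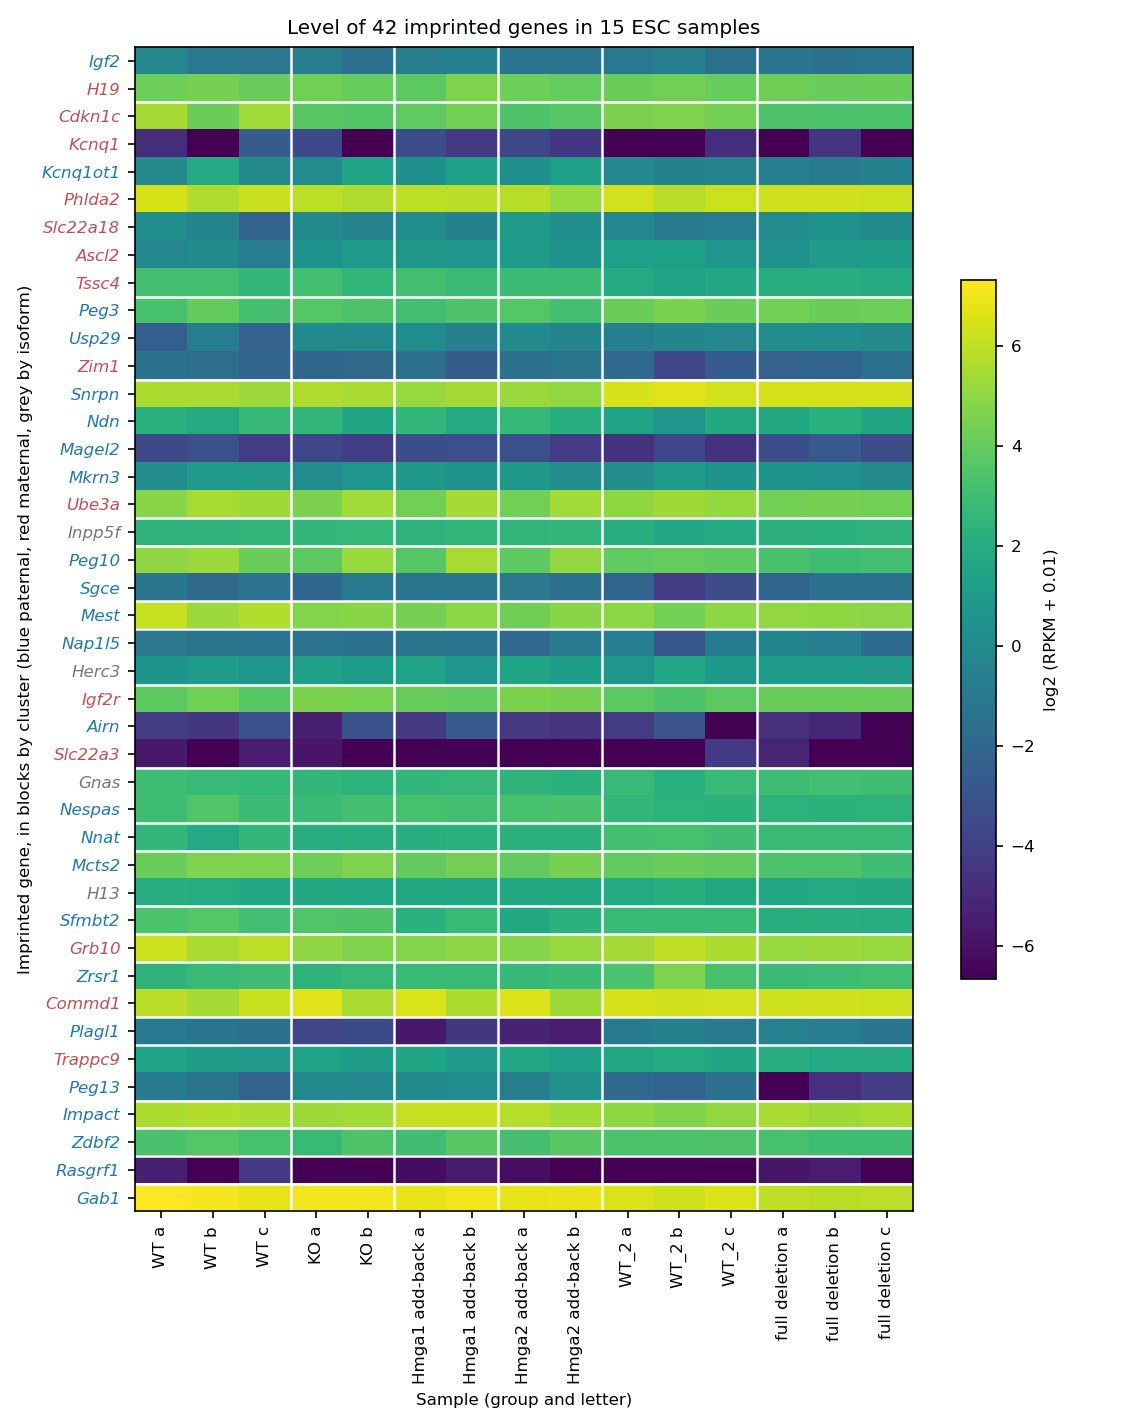
Level of each of the 42 imprinted genes (vertical, in blocks by cluster) in each of the 15 samples (horizontal, in blocks by group), as log2 of RPKM plus 0.01, with names in blue for paternal, red for maternal and grey for isoform-dependent expression. Gab1 is the brightest, Plagl1 darkens in KO and both add-backs, and Peg13 darkens in the full deletion.

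The imprinted genes covered a wide range of levels in ESC. By their median over the 15 samples, 14 had an RPKM under 1, 14 from 1 to 10 and 14 of 10 or more. The highest median RPKM was that of Gab1 (110.2), an adaptor of receptor tyrosine kinases. Commd1 followed with a median RPKM of 77.3, Phlda2 (a pleckstrin-homology protein that limits placental growth) with 61.5, and Snrpn (a small nuclear ribonucleoprotein) with 48.1. The 5 lowest genes did not reach a mean count of 10 and were not tested. These were Kcnq1 with 0 to 14 counts per sample, Magel2 with 3 to 15, Rasgrf1 with 0 to 7, Airn with 0 to 5 and Slc22a3 with 0 to 3. The remaining 37 members were tested in every comparison. They passed a filter on the mean over all samples of the experiment, not over a group. Of the members called below, Plagl1 passed it in the first experiment only through WT. Peg13 passed it in the second only through WT_2.

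In the full deletion, 8 of the 37 members passed an adjusted p under 0.05, 1 higher and 7 lower than in WT_2. That is 21.6% of the members, beside 8.25% of all 13098 genes tested. Peg13, 1 of the 8, passed the filter on the mean count only through WT_2, so the share is a description only. For the lower direction the background was 3.77% and for the higher one 4.47%. Cdkn1c, an inhibitor of cyclin-dependent kinases, Ube3a, a ubiquitin ligase, and 5 genes labelled paternal (Peg10, Mcts2, Sfmbt2, Peg13 and Gab1) fell, while Impact rose. Such labels can hold in some tissues only, and the parental copy expressed was not measured in these ESC. The median log2 fold change over the members was -0.08 (all genes 0.04). It was -0.27 for the 21 genes labelled paternal, 0.05 for the 12 labelled maternal and 0.12 for the 4 labelled isoform-dependent. All adjusted p-values below come from the quasi-likelihood test of edgeR, adjusted after Benjamini and Hochberg over every gene tested.

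**Figure D2:**
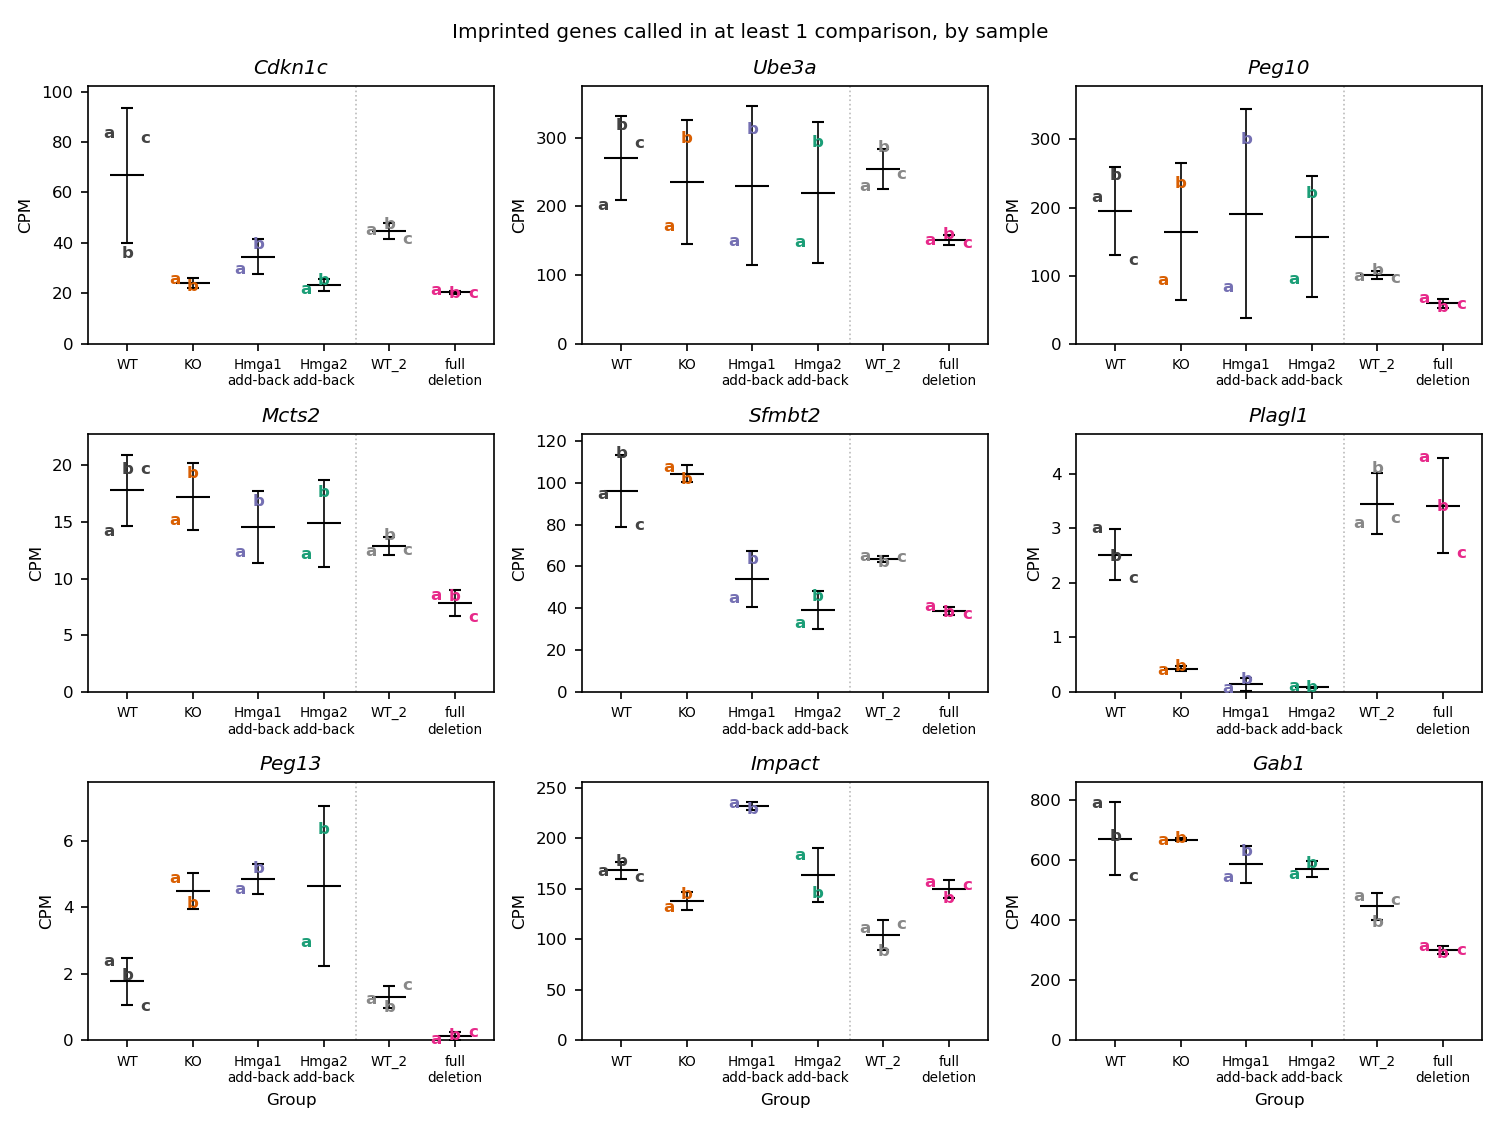
CPM (linear axes from 0) of the members called in at least 1 comparison, with a letter for each sample in the 6 groups and bars for mean ± SD. In the full deletion Cdkn1c, Ube3a, Peg10, Mcts2, Sfmbt2, Peg13 and Gab1 lie below every WT_2 sample, and in KO and both add-backs Plagl1 lies below every WT sample.

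Cdkn1c lies at chr7:150644255-150646955 (NCBIM37, minus strand) and is expressed from the maternal copy. It had 45.0, 47.4 and 41.3 CPM in the WT_2 samples and 20.9, 20.04 and 20.04 in the full deletion. The groups did not overlap, and the spread in the full deletion was under 1 CPM. The log2 fold change was -1.13 (SE 0.10), with an adjusted p of 0.00913 (quasi-likelihood test of edgeR, adjusted after Benjamini and Hochberg). Cdkn1c was the only member that also met the rule of the study, an adjusted p under 0.01 with a fold of 2 or more. By that rule 0.0687% of all genes were called.

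Ube3a, at chr7:66484122-66562097 (NCBIM37, plus strand), had 229.6, 287 and 246 CPM in WT_2 and 149.9, 159 and 145 in the full deletion. All full deletion samples were below all WT_2 samples, with a log2 fold change of -0.75 (SE 0.12, adjusted p = 0.0241). Ube3a is known for maternal expression in neurons, and in other cells both copies are active. Its neighbour Snrpn, expressed from the paternal copy, had a log2 fold change of -0.08 (adjusted p = 0.591).

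Peg10, a gene derived from a retrotransposon, lies at chr6:4697306-4710514 (NCBIM37, plus strand). It had 99.1, 107 and 95.7 CPM in WT_2 and 66.7, 53.1 and 58.1 in the full deletion, without overlap. Its log2 fold change was -0.76 (SE 0.12, adjusted p = 0.0216). Sgce starts 101 bases away on the other strand, is also expressed from the paternal copy and encodes epsilon-sarcoglycan. Sgce had a log2 fold change of 1.33 (SE 0.53, adjusted p = 0.114), which did not pass the test.

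Sfmbt2, at chr2:10292137-10516880 (NCBIM37, plus strand), had 64.6, 61.8 and 64.2 CPM in WT_2 and 41.0, 37.9 and 37.03 in the full deletion. It fell by 0.72 on the log2 scale (SE 0.09, adjusted p = 0.0186). Gab1, at chr8:83288333-83404378 (minus strand), had 477, 392 and 466 CPM in WT_2 and 313, 286 and 298 in the full deletion, and fell by 0.57 (SE 0.12, adjusted p = 0.0383). Neither gene overlapped between the groups. Both are known to be imprinted in extraembryonic tissue, and Gab1 is expressed from both copies elsewhere.

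Mcts2, a retrogene at chr2:152512884-152513676 (NCBIM37, plus strand) inside an intron of H13, had 12.4, 13.8 and 12.5 CPM in WT_2. In the full deletion it had 8.53, 8.42 and 6.54, all lower, with a log2 fold change of -0.72 (SE 0.15, adjusted p = 0.0366). H13 encodes signal peptide peptidase and had a log2 fold change of -0.14 (adjusted p = 0.364). The 793 bases of Mcts2 lie in H13 on the same strand, and reads that align in several places were put at 1 of them at random, so the level of Mcts2 is uncertain.

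Peg13 is a noncoding RNA from an intron of Trappc9 and is expressed from the paternal copy. It had 26, 16 and 34 counts (1.23, 0.980 and 1.64 CPM) in WT_2 and 0, 3 and 5 counts (0, 0.130 and 0.227 CPM) in the full deletion. No full deletion sample reached the lowest WT_2 sample. The ratio of depth-scaled counts was 0.0992, with a 95% exact binomial interval of 0.0413 to 0.206 that covers counting error only. The fitted log2 fold change was -3.27 (SE 0.59, adjusted p = 0.0301). Peg13 passed the filter only through WT_2 (mean count 2.67 in the full deletion), and with no filter the adjusted p was 0.0243 (4.27e-05 to 0.147 over all alternatives). Trappc9, its host gene, had a log2 fold change of 0.19 (adjusted p = 0.250).

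Impact, an inhibitor of the amino acid sensing kinase GCN2, had 111, 87.4 and 114 CPM in WT_2 and 156, 140.0 and 153 in the full deletion. All full deletion samples were higher. The log2 fold change was 0.53 (SE 0.13) and the adjusted p 0.0496, just inside the threshold. In edgeR's test, 2 members lay closest outside it, Igf2r with a log2 fold change of 0.46 (SE 0.12, adjusted p = 0.0584) and Nnat with -0.39 (SE 0.12, adjusted p = 0.0692).

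Of the 37 members, 7 lay above and 13 below WT_2 in all 3 full deletion samples, and groups without overlap were seen for 51.3% of all genes tested. The calls depended on single samples. Without WT_2 b, 18 of 37 members were called, 6 higher and 12 lower, beside 42.5% of all genes. Without WT_2 a, 6 members were called, beside 9.4% of all genes. Leaving out WT_2 c, full deletion a, full deletion b or full deletion c gave no member called by edgeR. Of the 37 members 15, 13, 12 and 13 then had an unadjusted p under 0.05, beside 35.8%, 22.5%, 25.1% and 22.6% of all genes. None of the 8 called members changed sign in any alternative tried.

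**Figure D3:**
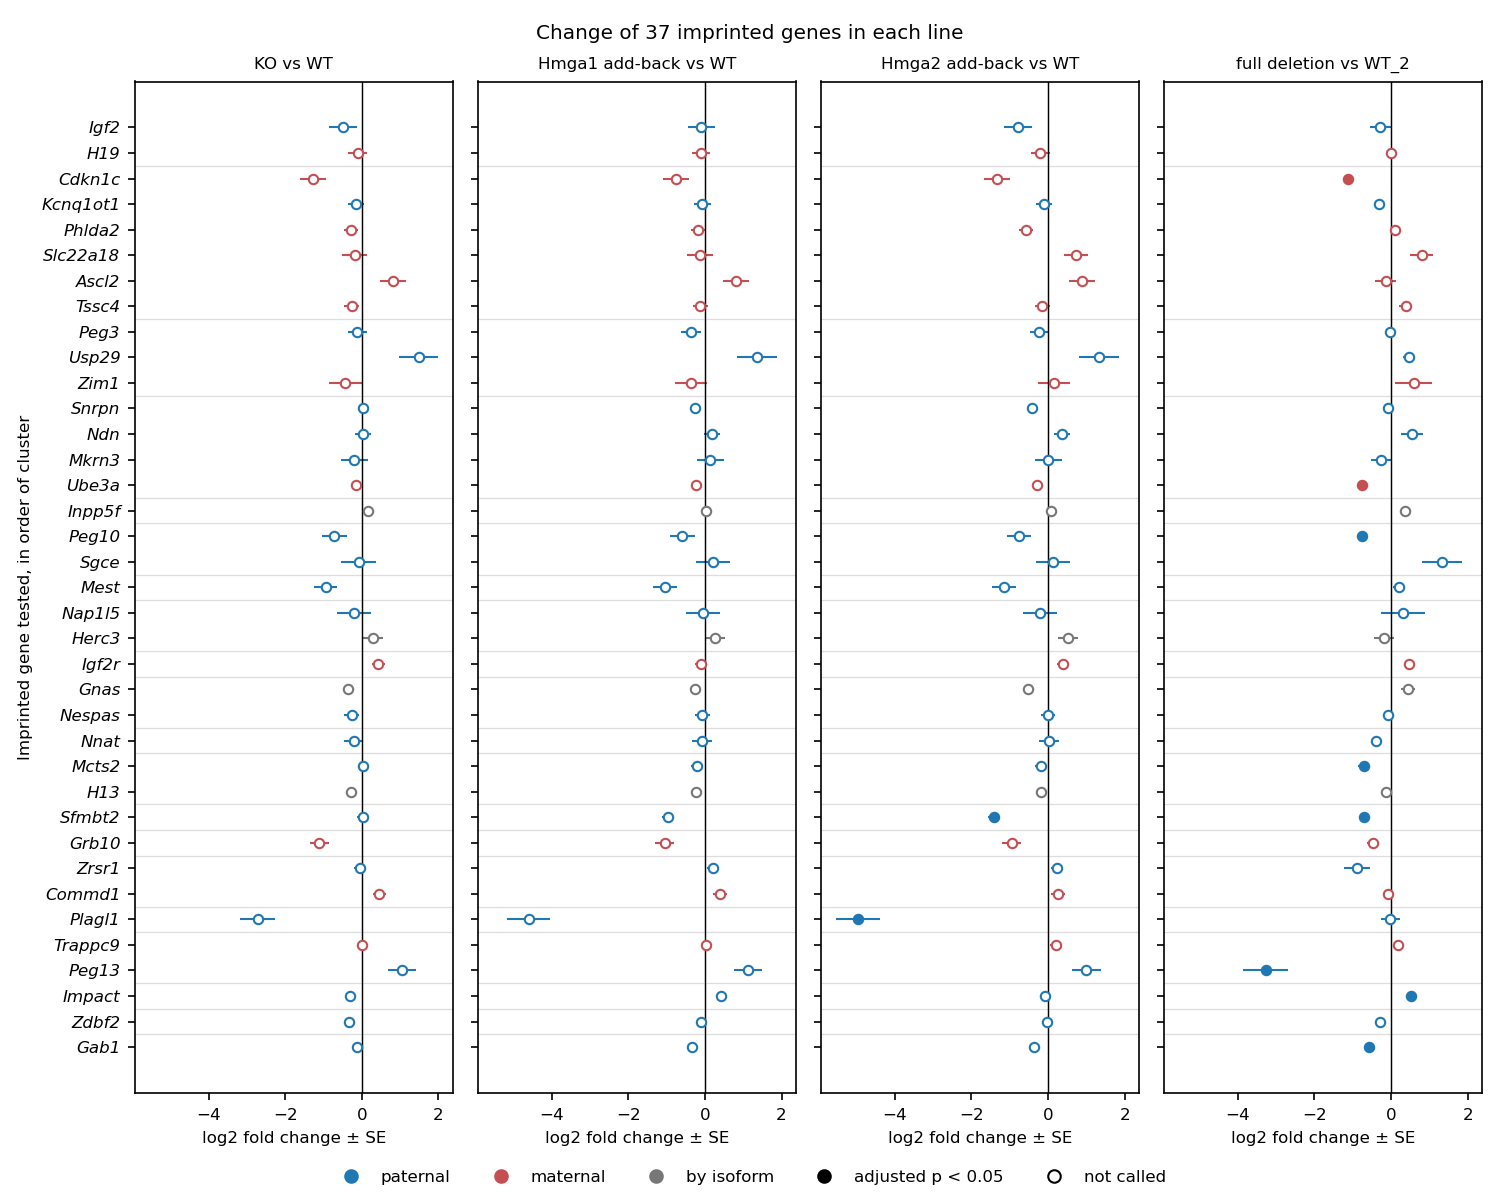
Log2 fold change ± SE (horizontal) of the 37 tested members in order of cluster (vertical) for KO and both add-backs against WT and for the full deletion against WT_2. Filled symbols mark an adjusted p under 0.05, which Sfmbt2 and Plagl1 reach in the Hmga2 add-back and 8 members in the full deletion.

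In the first experiment no member was called in KO or in Hmga1 add-back cells against WT, and Plagl1 and Sfmbt2 were lower in the Hmga2 add-back. The background was 0.0647% of 13912 genes in KO, 0.0431% for Hmga1 add-back cells and 0.165% for the Hmga2 line (0.0575% for the lower direction). By the rule of the study no member was called in any of the 3, beside 0.0216%, 0.0144% and 0.0647% of all genes. The 2 called members are 5.41% of 37, and 1 of them, Plagl1, passed the filter on the mean count only through WT. That share is therefore a description only. Beside the counts of 0, 12 of 37 members in KO and 9 of 37 in Hmga1 add-back cells had an unadjusted p under 0.05 in edgeR's test. Over all 13912 genes 1747 (12.6%) and 1844 (13.3%) did. For KO, DESeq2 called 2 (Grb10 and Plagl1), beside 1.43% of all genes, and limma-trend 0. In Hmga1 add-back cells DESeq2 called 3 (Grb10, Plagl1 and Sfmbt2), beside 1.44% of all genes, and limma-trend 0. The median log2 fold change over the members was -0.16 in KO (all genes -0.01), -0.11 for Hmga1 add-back cells (all genes 0.00) and -0.10 for the Hmga2 line. All 3 comparisons share the WT samples, so their values are given side by side.

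Plagl1, at chr10:12810497-12851500 (NCBIM37, plus strand), was low in every sample of KO cells and of the lines made from them. It had 3.004, 2.48 and 2.08 CPM in the WT samples, resting on 95, 32 and 50 counts. In KO a and b it had 0.393 and 0.456 CPM (14 and 6 counts), in Hmga1 add-back cells 0.0574 and 0.225 (2 and 3 counts), and in the Hmga2 line 0.0889 and 0.0704 (3 and 1 counts). None of these 6 samples overlapped WT, and the add-backs were lower than KO rather than nearer to WT.

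Within batch a, Plagl1 was at 13.1% of the WT level in KO, 1.91% in the Hmga1 and 2.96% in the Hmga2 add-back. Within batch b it was at 18.4%, 9.06% and 2.84%. The depth-scaled ratio to WT over both batches was 0.144 in KO (95% exact binomial interval 0.0849 to 0.231), 0.0364 in Hmga1 add-back cells (0.0116 to 0.0872) and 0.0292 in the Hmga2 line (0.00784 to 0.0767), intervals for counting error only. The fitted log2 fold changes were -2.72 (SE 0.46, adjusted p = 0.0744), -4.60 (SE 0.56, adjusted p = 0.0504) and -4.97 (SE 0.58, adjusted p = 0.0176). Plagl1 passed the filter on the mean count only through WT (mean count 22.9 over the 9 samples, 4.83 over the 6 without WT), and a gene kept in this way had to differ between the groups. With no filter the adjusted p there was 0.00473 (0.000190 to 0.425 over all alternatives). Against KO its log2 fold change was -1.88 (SE 0.68) in Hmga1 add-back cells and -2.25 (SE 0.70) in the Hmga2 line, with adjusted p-values of 0.9999 and 0.877. In the second experiment Plagl1 had 3.08, 4.11 and 3.18 CPM in WT_2 and 4.29, 3.41 and 2.54 in the full deletion, which overlapped (log2 fold change -0.02, SE 0.24, adjusted p = 0.956).

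Sfmbt2 separated the add-backs from both WT and KO. It had 94.4, 114 and 79.9 CPM in WT, 107 and 102 in KO, 44.6 and 63.4 in Hmga1 add-back cells, and 32.8 and 45.7 in the Hmga2 line. KO lay within the range of WT, and all 4 add-back samples lay below both. The log2 fold change against WT was 0.02 in KO (adjusted p = 0.966), -0.96 in Hmga1 add-back cells (SE 0.15, adjusted p = 0.0811) and -1.42 in the Hmga2 line (SE 0.16, adjusted p = 0.0125). Against KO it was -0.99 (SE 0.15, adjusted p = 0.824) and -1.44 (SE 0.16, adjusted p = 0.0555). Within batches a and b it was at 47.2% and 55.5% of WT in Hmga1 add-back cells and at 34.8% and 40.0% in the Hmga2 line.

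Against KO, edgeR called no member in either add-back, where 0% and 0.0144% of all genes were called (0% and 0.00719% by the rule of the study). At an unadjusted p under 0.05 there were 4 members in Hmga1 add-back cells and 5 in the Hmga2 line, beside 2.8% and 5.09% of all genes. DESeq2 called 2 (Impact and Sfmbt2) and 1 (Sfmbt2), beside 0.0863% and 0.137% of all genes. With limma-trend 0 and 1 (Sfmbt2) were called, beside 0% and 0.0359%. Without WT a or without WT b, edgeR also called Sfmbt2 in the Hmga2 add-back against KO, beside 0.0432% and 0.0428% of all genes.

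**Figure D4:**
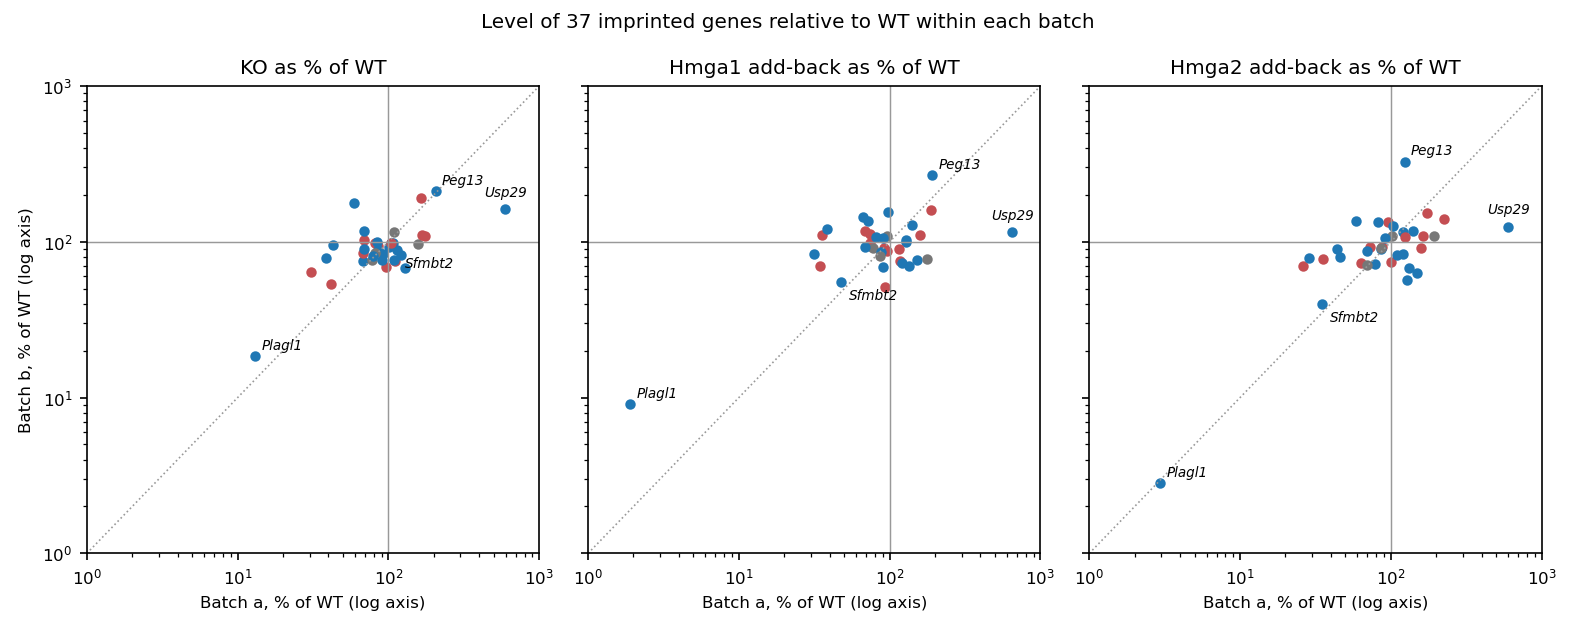
Level of the 37 tested members in KO and both add-backs as a percentage of WT of the same batch, batch a on the horizontal and batch b on the vertical log axis (blue paternal, red maternal, grey isoform). Plagl1 is low in both batches of all 3 lines, Sfmbt2 in those of the add-backs, and Usp29 lies far to the right, with a larger percentage in batch a than in batch b.

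The remaining members moved less evenly between batches. Of the 37, 18 were below WT in both batches in KO, 6 above in both and 13 on different sides, so 64.9% moved the same way, beside 62.1% of all genes. In the Hmga1 add-back 54.1% did (all genes 50.6%) and in the Hmga2 line 70.3% (all genes 62%). Samples did not overlap between KO and WT for 5 members above and 7 below WT, beside 23.5% of all genes. For the Hmga1 add-back there were 4 above and 5 below (17.8% of all genes) and for the Hmga2 line 5 above and 8 below (26.8%).

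Several members had large fold changes in all 3 lines without passing the test, and they are given because their groups did not overlap or their fold was large, chosen after their values were seen. Grb10, an adaptor that damps insulin and IGF1 receptor signalling, is expressed from the maternal copy. It had 445, 269.6 and 355 CPM in WT and 145 to 210.1 in the 6 samples of KO and the add-backs. Those samples were all below WT, with log2 fold changes of -1.12, -1.05 and -0.95 (adjusted p = 0.155, 0.164 and 0.154).

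Mest, a hydrolase-like protein expressed from the paternal copy, had 189, 101 and 146 CPM in WT and 53.9 to 84.4 in KO and the add-backs. Again no sample overlapped, with log2 fold changes of -0.95, -1.04 and -1.15 (adjusted p = 0.294, 0.248 and 0.159). In the full deletion it had 91.5, 89.1 and 81.6 CPM against 83.2, 58.5 and 86.3 in WT_2, which overlapped.

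Usp29, a ubiquitin-specific protease, varied widely between WT samples. It had 2.15, 7.60 and 2.53 CPM in WT, 12.9 and 12.3 in KO, 13.9 and 8.77 in Hmga1 add-back cells, and 12.9 and 9.51 in the Hmga2 line. WT b was closer to the lower add-back samples than to WT a or c. KO was at 598% of its WT in batch a and at 162% in batch b, and the log2 fold change was 1.48 (SE 0.51, adjusted p = 0.317). Peg3, the zinc finger gene that shares its promoter, had a log2 fold change of -0.12 in KO (adjusted p = 0.885), with 57.3 to 150.3 CPM over all samples and a median of 81.6.

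Cdkn1c had 83.3, 35.7 and 81.3 CPM in WT, 25.6 and 22.8 in KO, 29.6 and 39.5 in Hmga1 add-back cells, and 21.6 and 25.0 in the Hmga2 line. WT b lay below the higher Hmga1 add-back sample, so KO and the Hmga2 add-back stood apart from WT and the Hmga1 add-back did not. The log2 fold change was -1.28 in KO (SE 0.34, adjusted p = 0.202) and -1.33 in the Hmga2 add-back (SE 0.34, adjusted p = 0.146).

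Of the members called in the full deletion, Ube3a and Peg10 were split by batch in the first experiment. Ube3a had 201, 318 and 292 CPM in WT, 171 and 299 in KO, 148 and 312 in Hmga1 add-back cells, and 147 and 293 in the Hmga2 line. Peg10 had 215, 247 and 122 CPM in WT, 92.9 and 235 in KO, 82.1 and 300.1 in Hmga1 add-back cells, and 94.4 and 220.3 in the Hmga2 line. In both genes batch b was above batch a in every group.

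Over the first experiment, all 4 samples of batch b were above all others for 4 members (Kcnq1ot1, Ube3a, Peg10 and Zdbf2). They were below all others for 2 (Ndn and Commd1). The share over all genes was not computed, so these counts are a description only. Kcnq1ot1, the long noncoding RNA antisense to Kcnq1, had 205 to 303 CPM in batch b and 77.4 to 107 in the other samples. Its log2 fold changes against WT, fitted with the batch term, were -0.16, -0.07 and -0.10.

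Gab1 had 787, 677 and 545 CPM in WT, 662 and 670.3 in KO, 541 and 629 in Hmga1 add-back cells, and 551 and 587 in the Hmga2 line. Mcts2 had 14.1, 19.6 and 19.6 CPM in WT and 12.1 to 19.3 in the other lines. Impact had 167, 177 and 161 CPM in WT, 131 and 144 in KO, 235 and 229 in Hmga1 add-back cells, and 183 and 145 in the Hmga2 line. For Gab1 and Mcts2 all 3 lines overlapped WT, while Impact was below WT in KO and above it in Hmga1 add-back cells, with adjusted p-values of 0.381 and 0.261.

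WT b decided how many members were called against WT. Without it, 8 members were called in KO (Usp29, Commd1 and Igf2r higher, and Cdkn1c, Grb10, Mest, Peg10 and Plagl1 lower), beside 5.25% of all genes. In the Hmga1 add-back 8 were then called, beside 5.75% of all genes, and in the Hmga2 line 12, beside 9.36%. Without WT c, 1 member (Plagl1) was called in Hmga1 add-back cells. In the Hmga2 add-back no member was called by edgeR without WT a or either sample of the add-back itself, a or b (8, 6 and 8 at an unadjusted p under 0.05, beside 6.52%, 5.79% and 13.2% of all genes), and 1 (Sfmbt2) was called without KO a or KO b.

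The changes in KO and in the full deletion were compared in a joint fit, which tests whether both lines without Hmga1 moved alike. Peg13 was the only member called, beside 0.307% of 13671 genes (0.293% in the higher direction). By the rule of the study edgeR called no member, beside 0.0951% of all genes. It had 75, 25 and 24 counts in WT (2.37, 1.94 and 0.996 CPM) and 174 and 54 in KO (4.88 and 4.10 CPM), so both KO samples were above every WT sample while the full deletion was below WT_2. The Hmga1 add-back had 4.54 and 5.17 CPM and the Hmga2 add-back 2.93 and 6.34, also all above WT. The log2 change in KO was 1.04 (SE 0.38, adjusted p = 0.335), and that in KO minus that in the full deletion was 4.34 (SE 0.72, adjusted p = 0.0300).

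The Peg13 difference kept its sign in all 22 alternatives and passed the threshold in 12. The call was lost when scaled by summed counts, where Plagl1 was called instead, and without WT a, WT b, KO a, either Hmga1 add-back sample, WT_2 c or any 1 of the full deletion samples (adjusted p up to 0.253). Without WT b, Mest and Usp29 were called instead, and without WT_2 b 8 members. The shares of all genes called were 0.19% with summed counts, 0.532% without WT b and 4.87% without WT_2 b. For Plagl1 the difference was -2.69 (SE 0.51, adjusted p = 0.0535), for Impact -0.83 (SE 0.19, adjusted p = 0.108) and for Sfmbt2 0.75 (SE 0.19, adjusted p = 0.130), and none of these passed. For Cdkn1c the changes in KO and in the full deletion were -1.28 and -1.13, and the difference was -0.13 (SE 0.37, adjusted p = 0.857).

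Clusters without a called member are described by their most counted gene, as lowest, median and highest CPM over the 15 samples. H19, a maternally expressed long noncoding RNA, had 35.8, 46.9 and 64.1 CPM, and its log2 fold change was -0.10 in KO, -0.10 and -0.20 in the add-backs and -0.00 in the full deletion. Igf2, the growth factor of the same cluster, had 1.49 to 3.67 CPM. Igf2r, the receptor that takes up IGF2 for degradation, had 97.9, 156 and 212 CPM.

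The other genes of the Kcnq1 cluster were low or changed little. Phlda2 had 26.7, 45.3 and 65.9 CPM, Tssc4 3.80 to 12.2 and Ascl2, a trophoblast factor, 0.955 to 3.86. Slc22a18, a solute carrier, had 0.332 to 3.38 CPM with log2 fold changes of 0.73 in the Hmga2 add-back and 0.81 in the full deletion (adjusted p = 0.297 and 0.103). None of these 4 passed the test in any comparison.

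Among the other genes of the Snrpn and Peg3 clusters, Snrpn itself had 99.1, 142 and 294 CPM and was highest in WT_2 and the full deletion. Ndn (necdin) had 2.57 to 10.9 CPM, Mkrn3, a makorin ring finger gene, 2.41 to 4.96 and Zim1, a maternally expressed zinc finger gene, 0.245 to 1.55. No change of these genes passed the test.

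The Gnas cluster, which encodes the stimulatory G protein subunit and its upstream forms, had 51.8, 73.1 and 102 CPM for Gnas. Its antisense transcript Nespas had 11.4 to 26.5 CPM, on the other strand of 11117 shared bases, and the counting used strand. Gnas had a log2 fold change of -0.52 in the Hmga2 add-back (SE 0.11, adjusted p = 0.118) and 0.44 in the full deletion (SE 0.17, adjusted p = 0.115).

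Inpp5f, an inositol phosphatase, had 24.0, 40.8 and 46.9 CPM. Herc3, the host gene of Nap1l5, had 10.8, 13.99 and 23.6, and Nnat (neuronatin) 5.43, 8.86 and 14.2. Commd1 had 67.5, 131 and 177 CPM, and Zdbf2, a zinc finger gene, had 87.3, 126 and 171. None of these 5 genes passed the test in any comparison. Zrsr1, a splicing-factor retrogene in an intron of Commd1, had 69.9 CPM in WT_2 b and 15.4 to 29.8 in the other 14 samples, and as a retrogene it shares sequence with its parent gene, so its level is uncertain.

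**Figure D5:**
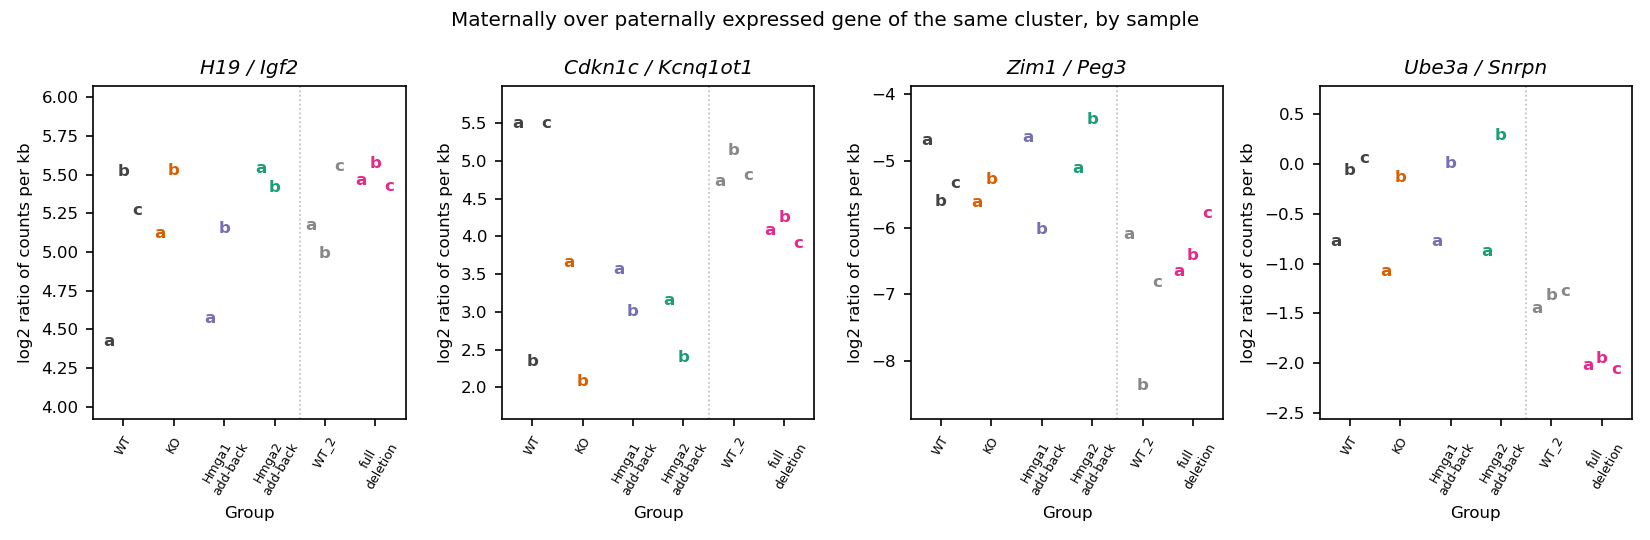
Log2 ratio of counts per kilobase of the maternally over the paternally expressed gene (vertical) in each sample (letters) of the 6 groups, for H19 over Igf2, Cdkn1c over Kcnq1ot1, Zim1 over Peg3 and Ube3a over Snrpn. Ube3a over Snrpn is lower in all 3 full deletion samples than in WT_2. In the first experiment Cdkn1c over Kcnq1ot1 is lower in batch b than in batch a of each group.

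Within clusters, genes of opposite parental origin can be set against each other in the same sample, as the log2 ratio of counts per kilobase. H19 exceeded Igf2 by 4.42 to 5.57 in all samples. Cdkn1c exceeded Kcnq1ot1 by 5.49, 2.34 and 5.50 in WT, by 3.66 and 2.08 in KO, by 3.57 and 3.01 in Hmga1 add-back cells and by 3.14 and 2.39 in the Hmga2 line. In WT_2 this ratio was 4.73, 5.14 and 4.81 and in the full deletion 4.08, 4.25 and 3.91, without overlap. In the first experiment batch b was lower than batch a in each group.

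Ube3a over Snrpn was -1.45, -1.32 and -1.28 in WT_2 and -2.02, -1.96 and -2.06 in the full deletion. In the first experiment it was -1.08 to -0.78 in batch a and -0.14 to 0.28 in batch b, so the batches lay further apart than the groups. Zim1 over Peg3 ran from -8.38 in WT_2 b to -4.37, and Igf2r over Airn rests on 0 to 5 counts of Airn and is not interpreted. These ratios are descriptions and were not tested.

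Factors that maintain or write imprints were listed alongside. Of 9 genes of imprint maintenance, 1 was higher and 2 were lower in the full deletion, where 8.25% of all genes were called (median log2 fold change -0.31, all genes 0.04), and none was called in the comparisons of the first experiment. Dppa3, which protects methylation in the zygote, rose by 0.96 (SE 0.17, adjusted p = 0.0293). Trim28, the corepressor recruited by zinc finger proteins, fell by 0.60 (SE 0.14, adjusted p = 0.0468), and Zfp57, which binds methylated imprinting control regions, fell by 0.44 (SE 0.10, adjusted p = 0.0444). Of 7 genes of de novo methylation and methyl oxidation, 2 were lower there (median -0.43), the dioxygenase Tet2 with -1.005 (SE 0.21, adjusted p = 0.0366) and the methyltransferase Dnmt3b with -0.68 (SE 0.11, adjusted p = 0.0250).

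Among 11 tested partners of Igf2, Igf2r and Grb10 in growth factor signalling, 1 was higher in the Hmga2 add-back and 1 in the full deletion. Igf2bp2, an RNA-binding protein and known target of HMGA2, had a log2 fold change of 1.56 against WT (SE 0.13, adjusted p = 0.00333) and also of 1.56 against KO (SE 0.13, adjusted p = 0.0117). Irs2, an insulin receptor substrate, rose by 1.14 in the full deletion (SE 0.18, adjusted p = 0.0241). Neither moved with a called change of Igf2, Igf2r or Grb10.

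Markers of other cell types moved with some groups. The 15 feeder fibroblast markers summed to 15.1 to 20.2 CPM in WT, 23.6 to 32.3 in KO, 20.2 to 40.6 in Hmga1 add-back cells and 23.6 to 41.2 in the Hmga2 line. They summed to 13.5 to 16.1 CPM in WT_2 and 21.8 to 23.5 in the full deletion, where Fbln2 was called (log2 fold change 1.046, SE 0.21, adjusted p = 0.0356), 1 of 7 tested. Of the 15 markers, Dcn, Lum and Postn had under 1 count per sample on average. Col5a1 and Thy1 had the highest means in every group, and the low collagens did not all rise. In mean CPM, Col1a2 had 0.579 in WT and 0.222 in KO, and Col3a1 had 0.418 and 0. Col1a1 rose from 0.419 in WT to 0.957 in KO. In the full deletion Col1a1 fell from 0.62 in WT_2 to 0.295, while Col1a2 rose from 0.0479 to 0.263. Against WT, the 8 tested markers had a median log2 fold change of 0.69 in KO. It was 0.87 in the Hmga1 add-back, 0.71 in the Hmga2 add-back and 0.68 for the 7 tested in the full deletion. None of the 8 was called in the first experiment. Fewer cells of a type and less RNA per cell cannot be told apart in bulk samples.

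The primitive endoderm markers summed to 337 to 509 CPM in WT and 135 to 336 in KO, 201 to 602 in the Hmga1 and 221 to 289 in the Hmga2 add-back. The median log2 fold change of the 9 tested markers against WT was -2.09 in KO, -0.85 in Hmga1 add-back cells and -1.62 in the Hmga2 line, none of them called. By the summed level KO and the Hmga2 add-back lay below WT, KO in its higher sample by a narrow margin. The Hmga1 add-back spanned WT. Most of the sum in WT came from Lama1 and Col4a1 (means of 230 and 113 CPM). In WT_2 they summed to 99.4 to 131 CPM and in the full deletion to 98.8 to 105. Trophoblast markers summed to 53.8 to 72.8 CPM in WT and 46.3 to 169 in KO and the add-backs. They summed to 122 to 129 CPM in WT_2 and 151 to 161 in the full deletion. Most of each sum came from Tfap2c, with means of 58.4 CPM in WT, 124 in WT_2 and 154 in the full deletion. Cdx2 was highest in WT, with a mean of 0.578 CPM against 0.0900 in KO and 0.118 and 0.0296 in the Hmga1 and Hmga2 add-backs. Tpbpa and Prl3d1 had under 1 count per sample on average. Early neural markers summed to 159 to 186 CPM in WT, 127 to 175 in KO, 134 to 137 in Hmga1 add-back cells and 123 to 146 in the Hmga2 line, and to 174 to 183 in WT_2 against 146 to 147 in the full deletion. Both add-backs and the full deletion lay below their WT without overlap. Mesoderm markers summed to 8.38 to 9.46 CPM in WT, 7.18 to 9.27 in KO, 9.62 to 9.97 in Hmga1 add-back cells and 10.1 to 11.4 in the Hmga2 line, and to 6.89 to 9.68 in WT_2 against 4.66 to 5.92 in the full deletion. None of the markers of these lists was called.

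Pluripotency markers summed to 4609 to 5251 CPM in WT, 5298 to 5483 in KO, 5467 to 5579.9 in Hmga1 add-back cells and 5361 to 5816 in the Hmga2 line, all 3 lines above WT. They summed to 4022 to 6359 CPM in WT_2 and 3784 to 3838 in the full deletion, all below WT_2, and none of 10 was called. Zfp42 alone had a mean of 1753 CPM (SD 947) in WT_2 and 922 in the full deletion. The means of Nanog, Tfcp2l1, Dppa5a, Tbx3 and Utf1 were higher in the full deletion, and those of the other markers were lower. The median log2 fold change over the 10 markers there was -0.04. The part of these cells in the imprinted genes' values was not tested.

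HMGA proteins are known to bind AT-rich DNA, so the AT content of the members was compared with that of other genes. It was 54.4% in the median over 40 members with a position (36.6% to 66.1%) and 54.3% over 19319 genes, with 55.1% for paternally and 52.5% for maternally expressed members. Across the 35 tested members with a position, Pearson's r between AT content and log2 fold change lay between -0.243 and 0.0198 over the comparisons, as a description across genes that are not independent replicates.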

How the data were processed

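Strand-specific libraries were made from total RNA of mouse ESC after removal of ribosomal RNA. The authors cut 3 bases from the start of reads, aligned them to mm9 (NCBIM37) by QuasR and bowtie, placed multi-mapping reads at 1 random hit, and deposited raw counts per UCSC known gene on the same strand. The processing notes name bcl2fastq 2.17. All values were whole numbers.

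The imprinted genes, gene lists and tests were chosen with earlier results of these data known. Genes whose mean count reached 10 were scaled by TMM and tested with edgeR 4.0.16 (glmQLFit and glmQLFTest, R 4.3.3), and p-values were adjusted after Benjamini and Hochberg over all of them. A member was called at an adjusted p under 0.05, or at 0.01 with a fold of at least 2, the rule of the study. The first experiment (9 samples) was fitted together with batch (a, b, c) as a term, since the paper names the letters as batches of preparation and flow cell. Same-letter samples of different groups there deviated together (r 0.319 to 0.758). The second (6 samples) had no batch term. A joint fit of 15 samples tested the difference between KO and full deletion. The scripts were tested on simulated data.

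Alternatives were DESeq2's size factors, summed counts, no filter, a mean count of at least 50, DESeq2 1.42.0, limma-trend (limma 3.58.1, prior count 2), the block switched, a fit of only the groups compared, and leaving out each sample. Members called in any comparison are named with every sample's value, and clusters without one by their most counted gene. Of the other lists, called genes are named. Positions are from GENCODE on NCBIM37, promoters (250 bases before to 50 after a start) from RefSeq on GRCm38.p6. The ChIP data were not analysed here. Figures used matplotlib 3.10.9 (python 3.11.15).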

Additional observations from a re-analysis of the deposited data

Results flagged for a closer look

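Peg13 differed between the lines without Hmga1, by a test of the difference itself. Its log2 change in KO minus that in the full deletion was 4.34 (SE 0.72, adjusted p = 0.0300, quasi-likelihood test of edgeR), with 2 of 2 KO samples above all WT samples and 3 of 3 full deletion samples below all WT_2 samples. It rests on 0 to 174 counts per sample.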

How the results depend on the processing

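In KO against WT, members at an adjusted p under 0.05 went from 0 to 1 with no filter. They went to 2 with DESeq2's test and to 2 in the fit of the 2 groups. The share of all genes called went from 0.0647% to 0.445%, 1.43% and 0.49%. By the rule with a fold, members went from 0 to 1 with DESeq2, and all genes from 3 to 76. In the Hmga1 add-back, members went from 0 to 1 with size factors, 2 with no filter and 3 with DESeq2 (2 with the fold). The share of all genes went from 0.0431% to 0.0863%, 0.335% and 1.44%, and with the fold DESeq2 called 76 genes. In the Hmga2 add-back, members went from 2 to 1 at a mean count of 50, 4 with DESeq2 and 5 in the fit of the 2 groups. The share of all genes went from 0.165% to 0.155%, 2.36% and 2.52%. With the fold, members went to 2 with no filter, 2 with DESeq2 and 3 in the fit of the 2 groups. All genes called with the fold went from 9 to 22, 107 and 100. Against KO, DESeq2 and the fit of the 2 groups called 2 each in the Hmga1 add-back, beside 0.0863% and 0.115% of all genes. In the Hmga2 add-back summed counts, no filter, DESeq2, limma-trend and the fit of the 2 groups called 1 each. The share of all genes there was 0.0216% to 0.137%. With the fold, no filter and DESeq2 called 1 member each there, beside 3 and 10 genes in all. In the full deletion 8 became 3 with summed counts, which move the median of all genes from 0.04 to 0.32. The share of all genes called then went from 8.25% to 5.07%. DESeq2 called 2 members higher and 10 lower, beside 24.7% of all genes. With the fold 1 became 0 with size factors, 0 with summed counts and 2 with DESeq2, while all genes went from 9 to 7, 3 and 463. For KO minus full deletion 1 (Peg13) was replaced by 1 (Plagl1) with summed counts and became 2 with no filter and 5 with DESeq2. The share of all genes went from 0.307% to 0.19%, 0.272% and 2.41%. With the fold no filter and DESeq2 called 1 and 2 members, beside 26 and 109 genes in all. The median level over members went from 20.9 to 21.5 CPM in the Hmga2 add-back and from 17.1 to 18.9 in the full deletion when scaled by summed counts. The causes were not tested.

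Leaving out 1 sample gave 0 to 8 members in KO, 0 to 8 in the Hmga1 add-back, 0 to 12 in the Hmga2 add-back, 0 and 0 to 1 against KO, 0 to 18 in the full deletion and 0 to 8 for the difference. With the fold these were 0 to 3, 0 to 2, 0 to 5, 0, 0, 0 to 2 and 0 to 1.

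Without the replicate block, the Hmga2 add-back had 1 member called in place of 2 (Plagl1, log2 fold change -4.85, adjusted p = 0.0287), and Sfmbt2 had -1.29 (adjusted p = 0.129). In the full deletion the letters share only a number (r -0.0546 to 0.0703 for the same letter), and a replicate block there left 5 of 8 called, and 0 with the fold. It changed no other count of members called. Over all genes, calls went from 9 to 23 in KO, from 6 to 2 in the Hmga1 add-back and from 23 to 8 in the Hmga2 add-back without the block, and from 1080 to 396 in the full deletion with it.

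Over all these settings 96 values of single genes kept their call, 62 lost it and 0 changed sign. Depth limits Plagl1, with 1 to 3 counts in a sample of the add-backs, and Peg13, with 0 to 5 in the full deletion.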
